A study of Mus musculus with 4 samples.

Results

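A set of 40 genes of cell proliferation was followed in mouse heart ventricles at postnatal day 14, in mutants with Hnrnpu targeted in muscle and in wild type controls. The genes were chosen by symbol as known drivers and markers of DNA replication and mitosis, and all 40 were found among the 36814 rows of the authors' deposited table, each in 1 row. By function 17 belong to S phase (G1/S regulators, replication licensing, nucleotide supply) and 23 to mitosis (cyclin B kinase and its activators, checkpoint, kinetochore, spindle and cytokinesis). RNA sequencing was done on ventricles, atria removed, in 2 wild type samples and 2 samples of mutants made by crossing an Hnrnpu conditional knockout with the Ckmm-Cre transgene, which expresses Cre recombinase from the muscle creatine kinase promoter in striated muscle. Hnrnpu codes for hnRNP U, a nuclear RNA-binding protein of splicing and chromatin organisation. Each group held 1 male and 1 female sample on a mixed C57BL/6 and 129 S4 background, and the labels do not give the Cre or Hnrnpu alleles of the wild type mice. Because the promoter is active in muscle, fibroblasts, vessels and blood cells of the mutant ventricle are not targeted, and the tissue was measured whole.

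Mammalian heart muscle cells divide before birth and leave the cell cycle in the first weeks after it. In mice many of them go through a last round of DNA replication and nuclear division without cytokinesis, which leaves them with a pair of nuclei. Cells commit to S phase when cyclin E with Cdk2 and the E2F transcription factors switch on the genes for the MCM helicase, the sliding clamp and nucleotide synthesis. Later a second wave of genes follows under FoxM1 and the MuvB complex, for cyclins A and B with Cdk1, the spindle, the kinetochore and cytokinesis. Fibroblasts, endothelial cells and leukocytes still divide at this age, so in whole ventricles the transcripts of all dividing cells are summed. In such bulk tissue fewer cells of a type and less RNA per cell cannot be told apart.

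The authors' deposited table gives 1 RPKM value (reads scaled by transcript length and sequencing depth) per group, with the fold, p and adjusted p of the authors' own test. Values per animal were not analysed here, so levels carry no SD. An adjusted p below 0.05 is called a change. Small RNA genes have known lengths, and the steps of their RPKM place the mutant group at 2.44 times the reads of the control group if RPKM was scaled by mapped reads. On the same steps, with exon lengths of a later annotation, the members held about 36 to 2900 reads in control and about 50 to 4300 in mutant. Hnrnpu itself had 32.7 RPKM in control against 15.2 RPKM in mutant (adjusted p = 0.4384 in the authors' deposited table), a difference short of the threshold.

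These waves of cell cycle transcription are known for different promoter elements, E2F sites for S-phase genes and the cell cycle homology region (CHR), often downstream of CCAAT boxes, for mitotic genes. Promoters from RefSeq (GRCm38.p6, 250 bases before to 50 after the start) were at hand for 33 of the 40 members, 36 promoters in all, and a motif in any promoter of a gene was counted. Examples are printed to show the letters by which the classes are known. The motifs were searched on both strands. The E2F motif was taken as TTCCCGC, with the other accepted spellings TTCGCGC, then also the spelling TTGCCGC, and lastly the spelling TTGGCGC. The CHR motif was taken as TTTGAA with the other accepted spelling TTCGAA, and the box upstream of it as the letters CCAAT. Matches of different kinds shared bases in 2 members, Ccnb1 and Mcm7. An E2F motif was found in 10 of 15 S-phase members (66.7%) and 3 of 18 mitotic members (16.7%), against 10.9% of all 27025 genes with a promoter. A CHR motif was found in 3 S-phase members (20.0%) and 13 mitotic members (72.2%), against 21.7% of all genes. CCAAT was found in 10 S-phase members (66.7%) and 14 mitotic members (77.8%), against 41.1% of all genes. CHR and CCAAT stood together in 12 of 18 mitotic members and 3 of 15 S-phase members. Birc5, Ccne1, E2f1, Mad2l1, Nusap1 and Tyms held no match in this window. Aurkb, Ccna2, Ccne2, Cdc25c, Foxm1, Kif20a and Mcm4 were not searched. A match is a match of letters and was not tested as a binding site.

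The 250 bases before the start are printed for the S-phase members with the highest control level, 5′ to 3′ on the gene's strand, with all motif matches in capitals. Cdk2 lies on the minus strand (chr10:128705052-128705301), Rrm1 on the plus strand (chr7:102441445-102441694), Mcm2 on the minus strand (chr6:88898781-88899030) and Mcm3 on the minus strand (chr1:20820313-20820562).
Cdk2: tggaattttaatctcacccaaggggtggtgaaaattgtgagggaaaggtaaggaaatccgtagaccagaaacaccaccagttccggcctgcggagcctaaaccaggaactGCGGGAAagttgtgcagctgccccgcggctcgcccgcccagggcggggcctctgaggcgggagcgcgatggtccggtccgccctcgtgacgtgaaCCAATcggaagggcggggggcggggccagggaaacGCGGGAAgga
Rrm1: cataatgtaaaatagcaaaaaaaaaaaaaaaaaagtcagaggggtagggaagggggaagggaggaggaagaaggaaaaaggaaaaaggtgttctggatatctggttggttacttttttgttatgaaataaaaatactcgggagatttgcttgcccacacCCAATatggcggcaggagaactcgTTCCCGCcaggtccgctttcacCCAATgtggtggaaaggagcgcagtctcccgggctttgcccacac
Mcm2: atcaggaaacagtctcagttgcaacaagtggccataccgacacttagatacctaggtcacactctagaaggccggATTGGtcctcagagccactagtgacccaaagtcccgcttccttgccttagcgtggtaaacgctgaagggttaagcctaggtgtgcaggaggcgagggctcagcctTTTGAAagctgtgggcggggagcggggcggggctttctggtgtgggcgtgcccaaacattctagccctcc
Mcm3: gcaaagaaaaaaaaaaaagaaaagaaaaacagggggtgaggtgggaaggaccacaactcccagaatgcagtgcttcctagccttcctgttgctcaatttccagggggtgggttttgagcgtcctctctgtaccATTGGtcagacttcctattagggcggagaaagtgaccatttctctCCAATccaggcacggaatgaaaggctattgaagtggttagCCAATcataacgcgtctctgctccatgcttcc
Cdk2 shows 2 E2F motifs and 1 CCAAT, and Rrm1 shows 1 E2F motif between 2 CCAAT boxes. Mcm2 shows 1 CCAAT and 1 CHR motif. Mcm3 shows 3 CCAAT boxes here, and its E2F motifs start at bases 20, 40 and 43 after the start, outside the printed stretch.

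The same stretch follows for the mitotic members with the highest control level that had an entry. Mki67 lies on the minus strand (chr7:135716380-135716629), Cenpf on the minus strand (chr1:189688087-189688336), Prc1 on the plus strand (chr7:80294201-80294450) and Top2a on the minus strand (chr11:99024190-99024439).
Mki67: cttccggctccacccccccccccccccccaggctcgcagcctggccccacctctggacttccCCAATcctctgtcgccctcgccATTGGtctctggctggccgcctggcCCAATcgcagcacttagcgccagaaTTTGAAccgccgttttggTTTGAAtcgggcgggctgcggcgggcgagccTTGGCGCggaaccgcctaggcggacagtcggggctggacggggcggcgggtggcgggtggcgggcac
Cenpf: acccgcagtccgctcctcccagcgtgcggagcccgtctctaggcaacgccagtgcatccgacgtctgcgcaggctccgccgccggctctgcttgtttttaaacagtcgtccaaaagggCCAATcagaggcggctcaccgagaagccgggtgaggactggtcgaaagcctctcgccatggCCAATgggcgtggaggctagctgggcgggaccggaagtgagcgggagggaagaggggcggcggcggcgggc
Prc1: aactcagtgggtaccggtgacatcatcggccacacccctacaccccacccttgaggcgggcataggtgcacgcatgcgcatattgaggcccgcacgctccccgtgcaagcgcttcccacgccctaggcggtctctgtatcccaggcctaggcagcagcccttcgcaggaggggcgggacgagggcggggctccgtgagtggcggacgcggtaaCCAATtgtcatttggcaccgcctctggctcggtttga
Top2a: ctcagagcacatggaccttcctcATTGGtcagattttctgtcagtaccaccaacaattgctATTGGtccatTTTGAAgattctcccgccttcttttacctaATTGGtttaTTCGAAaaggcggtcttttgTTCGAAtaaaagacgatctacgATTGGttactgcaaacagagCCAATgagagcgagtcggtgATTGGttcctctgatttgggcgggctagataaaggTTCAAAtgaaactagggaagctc
Top2a holds 6 CCAAT boxes and 4 CHR motifs, and Mki67 holds 3 CCAAT boxes, 2 CHR motifs and 1 E2F motif. Cenpf shows 2 CCAAT boxes, with a CHR motif at base 3 after the start. Prc1 shows 1 CCAAT, with a CHR motif that begins 5 bases before the start and runs across it.

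**Figure D1:**
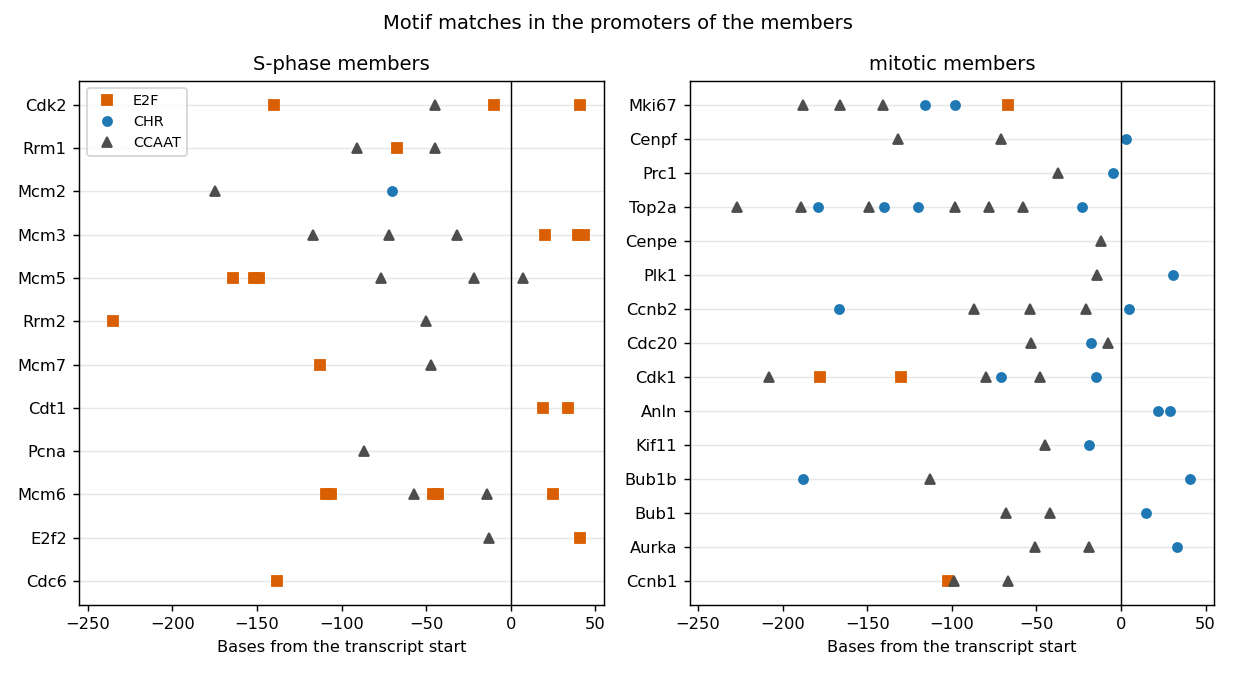
Motif matches in the promoters of the members, by the first base of each match (x axis, bases from the transcript start) and by gene (y axis, ordered by control RPKM), for E2F (squares), CHR (circles) and CCAAT (triangles). E2F squares are found in 10 of 15 S-phase members and CHR circles in 13 of 18 mitotic members; genes with no match are not drawn, and 1 promoter is drawn for each gene.

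None of the 40 proliferation genes passed the test between mutant and control ventricles. The call count was 0 of 40, where 3.51% of all 24454 rows tested were called in the authors' deposited table. With an unadjusted p under 0.05 there were 3 members, all lower in mutant, where 6.40% of all rows tested were higher and 6.20% lower at that p. The lower share was 8.99% over the 11246 rows in the members' own range of mean RPKM, 0.185 to 5.69. The classes are given side by side, with no test between them. Of the 17 S-phase members 16 lay below control, with a median log2 fold of -0.79, and of the 23 mitotic members 13 lay below and 10 above, with a median of -0.10. Over the rows in the same range of RPKM the median was -0.05, with 52.3% below control. In the authors' deposited table the fold was under 0.5 in 6 members, all 6 of them S-phase genes. The share of all rows under that fold was not counted. Over the rows in the members' range of RPKM the lower quartile of the log2 fold was -0.62.

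Every member was a low transcript. Control levels ran from 0.290 RPKM for Cdc6 to 6.87 RPKM for Cdk2, and 31 of 40 members were above 1 RPKM in control. The median control level was 1.83 RPKM for S-phase members and 1.93 RPKM for mitotic members. In mutant the medians stood apart, at 0.950 RPKM for S-phase and 2.08 RPKM for mitotic members. After Cdk2 the highest control levels were those of Mki67, Ccna2, Cenpf, Prc1, Top2a and Rrm1, between 3.45 and 5.39 RPKM. In mutant the order after Cdk2 was Ccna2, Rrm1, Cdc20, Ccnb2 and Mki67, between 3.20 and 4.46 RPKM. Neighbours in these orders cannot be told apart, since no spread between animals is at hand.

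**Figure D2:**
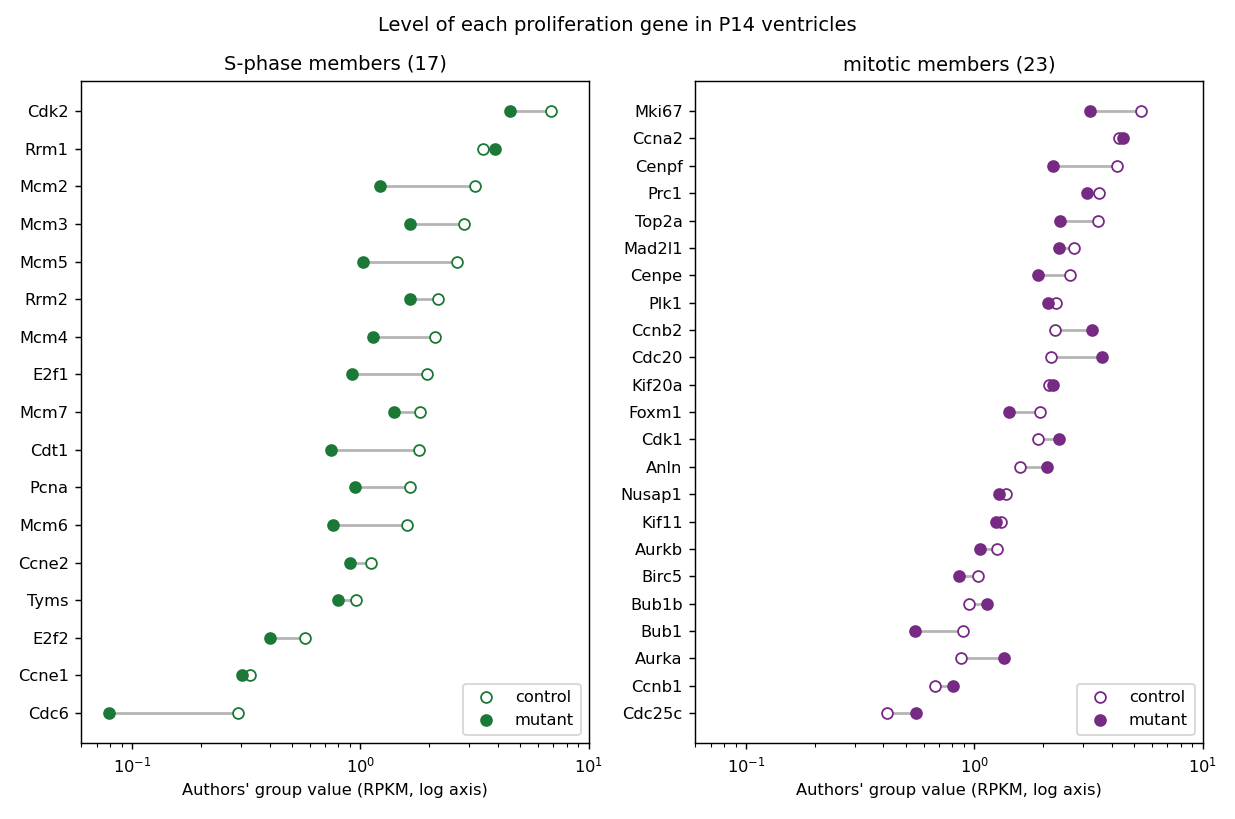
Authors' RPKM of each member in control (open circles) and mutant (filled circles) on a log axis, with S-phase genes on the left and mitotic genes on the right, ordered by control level. All S-phase members but Rrm1 have the filled circle to the left of the open one, while the mitotic members are split, 13 to the left and 10 to the right.

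The lowest folds were among the genes that license replication origins. All 8 of these were below control, with a median log2 fold of -1.18, and none passed the test. Cdc6, the ATPase that loads the MCM helicase on origins (chromosome 11, 98769115 to 98785254, mm9), had 0.290 RPKM in control against 0.0792 RPKM in mutant. Its log2 fold in the authors' deposited table was -1.87, with p = 0.0173 and adjusted p = 0.2197. The 95% interval, taken from the error that this p implies on a normal scale, ran from -3.41 to -0.33. Mcm2 (chromosome 6, 88833469 to 88848774, mm9) had 3.18 RPKM in control against 1.22 RPKM in mutant, with a log2 fold of -1.39 (interval -2.49 to -0.29) and adjusted p = 0.1825 in the authors' deposited table. Mcm5 (chromosome 8, 77633427 to 77652338, mm9) had 2.64 RPKM in control against 1.03 RPKM in mutant, with a log2 fold of -1.35 (interval -2.47 to -0.23) and adjusted p = 0.2275 in the authors' deposited table. These were the 3 members with an unadjusted p under 0.05.

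The MCM proteins form the ring-shaped helicase that unwinds DNA ahead of the fork, with each of the 6 subunits present once. Their levels summed to 14.2 RPKM in control and 7.20 RPKM in mutant. Mcm3 had 2.84 RPKM in control against 1.65 RPKM in mutant, and Mcm4 had 2.12 and 1.14 RPKM. Mcm6 had 1.60 RPKM in control against 0.756 RPKM in mutant. Mcm7 had the smallest difference of the ring, at 1.83 and 1.40 RPKM. It overlaps Ap4m1 and Cops6 on the other strand, and Cops6 had 9.70 and 16.7 RPKM. Cdt1, which loads the ring together with Cdc6, had 1.81 RPKM in control against 0.746 RPKM in mutant (p = 0.0529 in the authors' deposited table), and it lies inside the annotated span of Galnt2 on the same strand.

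The 5 G1/S regulators were also below control, with a median log2 fold of -0.52. E2f1, an activator of S-phase genes, had 1.96 RPKM in control against 0.915 RPKM in mutant, a log2 fold of -1.10 with p = 0.0627 in the authors' deposited table. Cdk2, the kinase partner of cyclin E, was listed at 6.87 and 4.50 RPKM, and E2f2 at 0.574 and 0.400 RPKM. The cyclins E themselves differed less, Ccne1 with 0.329 RPKM in control against 0.304 RPKM in mutant and Ccne2 at 1.11 and 0.905 RPKM. Ccne2 overlaps Ints8 on the other strand. The overlaps named here are of whole gene spans, and shared exons were not checked. Since the counting is not stated to use strand, reads from a stretch shared by such a pair cannot be told apart.

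Genes of the replication fork and of nucleotide supply had a median log2 fold of -0.34, and 3 of 4 were below control. Pcna, the sliding clamp of DNA polymerases, had 1.65 RPKM in control against 0.950 RPKM in mutant. Ribonucleotide reductase, which makes deoxyribonucleotides, has a large subunit coded by Rrm1 and a small S-phase subunit coded by Rrm2. Rrm1 had 3.45 RPKM in control against 3.88 RPKM in mutant, and was the single S-phase member above control. Rrm2 was listed at 2.19 and 1.65 RPKM, and Tyms, thymidylate synthase, at 0.954 and 0.797 RPKM.

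**Figure D3:**
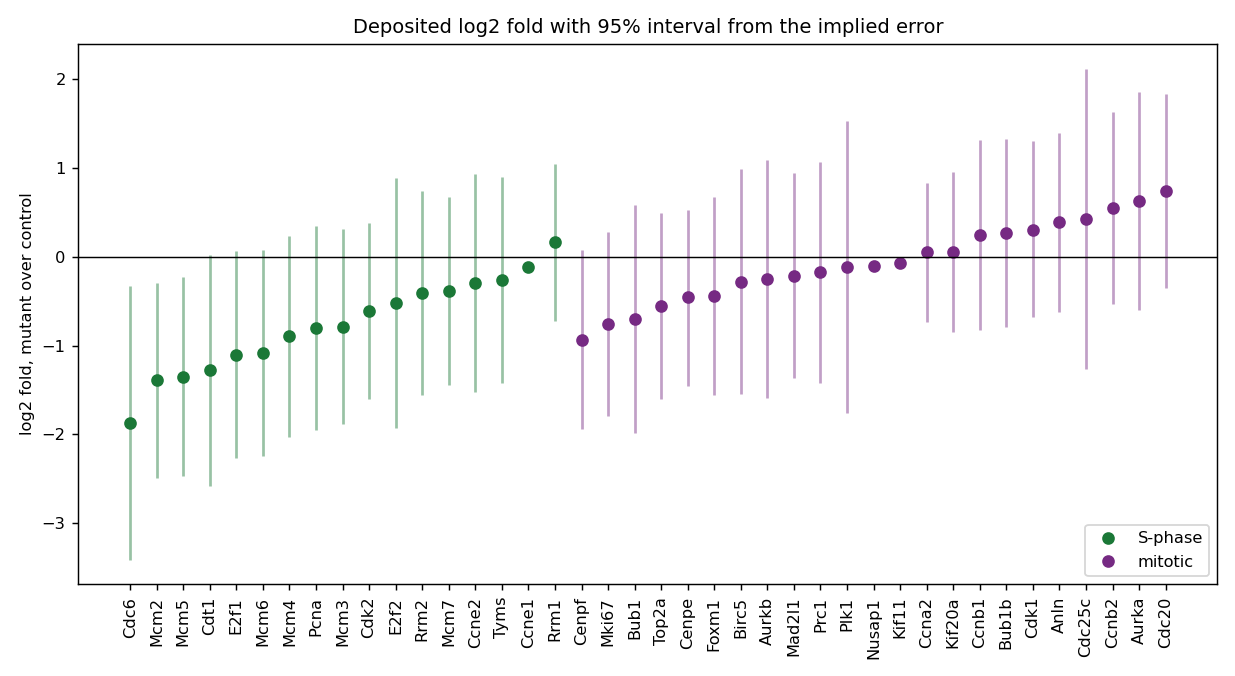
Deposited log2 fold of mutant over control for each member (y axis), with S-phase genes in green and mitotic genes in purple, each ordered by fold. Lines are 95% intervals from the error implied by the authors' p, drawn for 37 members with p under 0.9, and 34 of them cross 0.

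Among mitotic genes, those for cyclins, kinases and their activators lay mostly above control, 6 of 8, with a median log2 fold of 0.28 and no call. Ccna2, cyclin A2, which acts in S phase and at entry into mitosis, had 4.30 RPKM in control against 4.46 RPKM in mutant, and it overlaps Exosc9 on the other strand. Ccnb2 had 2.26 RPKM in control against 3.29 RPKM in mutant, and Ccnb1 had 0.676 and 0.805 RPKM. Cdk1, their kinase partner, had 1.91 RPKM in control against 2.36 RPKM in mutant. Cdc25c, a phosphatase that activates Cdk1, was listed at 0.414 and 0.557 RPKM. Aurka, a kinase of the spindle poles, had 0.872 RPKM in control against 1.35 RPKM in mutant. The other two, Plk1 and the transcription factor gene Foxm1, were below control, at 2.28 and 2.11 RPKM and at 1.93 and 1.42 RPKM.

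The spindle checkpoint holds back anaphase until all chromosomes are attached, and its genes showed no common direction, with 2 of 4 above control. Cdc20, the activator of the anaphase-promoting complex that the checkpoint inhibits, had 2.17 RPKM in control against 3.62 RPKM in mutant. Its log2 fold of 0.74 was the highest of the 40 (interval -0.35 to 1.83), with p = 0.182 in the authors' deposited table. It overlaps Elovl1 on the other strand, with 6.49 RPKM in control against 9.38 RPKM in mutant. Bub1b had 0.948 RPKM in control against 1.14 RPKM in mutant. Bub1 was listed at 0.892 and 0.550 RPKM, and Mad2l1 at 2.73 and 2.35 RPKM.

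All 6 genes of chromosome and kinetochore proteins were below control, with a median log2 fold of -0.50 and no call. Cenpf, a large protein of the kinetochore, had 4.23 RPKM in control against 2.22 RPKM in mutant, a log2 fold of -0.93 (interval -1.94 to 0.08) with p = 0.0713 in the authors' deposited table. Mki67, which codes for Ki-67, a proliferation antigen that coats mitotic chromosomes, had 5.39 RPKM in control against 3.20 RPKM in mutant. The authors' deposited table gives Mki67 a log2 fold of -0.75 with p = 0.153. Top2a, which untangles DNA, was listed at 3.49 and 2.38 RPKM, and Cenpe, a kinetochore motor, at 2.62 and 1.91 RPKM. Aurkb and Birc5, subunits of the chromosomal passenger complex, were listed at 1.26 and 1.06 RPKM and at 1.04 and 0.859 RPKM.

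The genes of the spindle and of cytokinesis were close to control, with a median log2 fold of -0.07. Anln, anillin, a scaffold of the contractile ring, had 1.59 RPKM in control against 2.08 RPKM in mutant. Kif20a, a motor of the central spindle, had 2.13 RPKM in control against 2.22 RPKM in mutant, and it overlaps Cdc23 on the other strand. Prc1, which bundles microtubules of the central spindle, was listed at 3.53 and 3.12 RPKM. Kif11, a motor that separates spindle poles, was listed at 1.31 and 1.25 RPKM, and Nusap1, a microtubule-binding protein, at 1.38 and 1.28 RPKM.

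The lack of calls does not show that the members were unchanged. The implied error of the 37 members that had one ran from 0.398 to 0.860 on the log2 scale, with a median of 0.573. At that precision 15 of 16 S-phase intervals and 12 of 21 mitotic intervals reached a log2 fold of -1 or lower, and 11 mitotic intervals reached 1 or higher. In the members' range of RPKM the smallest change the authors' test called was 3.03-fold. The medians of the classes differed by -0.68, S-phase minus mitotic, a description, since members of a class are not replicates.

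Other genes of the same processes, listed by function, were described in the same way. Of 42 other S-phase genes 35 were below control, with a median log2 fold of -0.74. In this list 1 fell in the authors' deposited table, where 1.48% of all rows were called lower, and at an unadjusted p under 0.05 there were 11 lower and 1 higher. The shares of all rows at that p were 6.20% lower and 6.40% higher, and 8.99% lower over the rows in the range of RPKM of the 40 genes. The call was Timeless, a protein that protects the replication fork (chromosome 10, 127669119 to 127689997, mm9), from 1.72 to 0.514 RPKM with adjusted p = 0.04974 in the authors' deposited table, just inside the threshold. Cdc7, the kinase that switches on the MCM helicase, had 1.67 RPKM in control against 0.522 RPKM in mutant (adjusted p = 0.09297 in the authors' deposited table). Of 65 other mitotic genes 43 were below control, with a median of -0.18 and no call in the authors' deposited table, and 1 had an unadjusted p under 0.05. That was Sgol2, a protector of centromeric cohesin, with 1.98 RPKM in control against 0.776 RPKM in mutant (p = 0.0167 in the authors' deposited table). Pttg1, securin, was listed at 4.98 and 2.29 RPKM.

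The promoters of these lists were searched likewise. An E2F motif was found in 19 of 33 other S-phase genes with a promoter (57.6%) and 15 of 53 other mitotic genes (28.3%), and a CHR motif in 10 (30.3%) and 37 (69.8%). Among S-phase members the median log2 fold was -0.70 in the 10 with an E2F motif and -0.80 in the 5 without, and among mitotic members 0.25 in the 3 with and -0.11 in the 15 without. Over both classes together, which hold the motif at different shares, it was -0.61 in 13 members with and -0.19 in 20 without. For the CHR motif the median was -0.52 in 3 S-phase members with and -0.79 in 12 without, and -0.07 in 13 mitotic members with and -0.21 in 5 without. Over all genes with a promoter and a mean of at least 1 RPKM, the median was 0.05 in 1450 genes with an E2F motif and 0.08 in 5888 without. The promoter of Mcm2, the S-phase member printed above with the lowest fold, held no E2F motif in this window.

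Genes for checkpoint kinases and homologous recombination, which act on stalled and broken forks, were below control in 17 of 18, with a median log2 fold of -0.87. Bard1, the partner of Brca1, fell from 0.588 to 0.114 RPKM (log2 fold -2.36, adjusted p = 0.03015 in the authors' deposited table), where 1.48% of all rows were called lower. At an unadjusted p under 0.05, 6 members of the list were lower, Bard1 included, where that share was 6.20% over all rows and 8.99% over the rows in the range of RPKM of the 40 genes. Pkmyt1, a kinase that inhibits Cdk1, had 4.57 RPKM in control against 1.91 RPKM in mutant, and Chek2, a checkpoint kinase, had 1.86 and 1.03 RPKM. Of 13 subunits and activators of the anaphase-promoting complex 8 were above control, with a median of 0.11, no call in the authors' deposited table and no gene with an unadjusted p below 0.05. Anapc7 had 3.87 RPKM in control against 6.47 RPKM in mutant, and Anapc13 had 23.3 and 17.3 RPKM.

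Upstream of both classes, 18 genes of the RB, E2F and DREAM regulators, which repress or activate cell cycle promoters, had a median log2 fold of -0.27, with 12 below control. Tfdp2, a DNA-binding partner of the E2F proteins, rose from 2.14 to 7.11 RPKM (adjusted p = 0.0259 in the authors' deposited table), where 2.03% of all rows were called higher. E2f6, a repressor of the family, had 6.80 RPKM in control against 4.11 RPKM in mutant. Among 12 D-type cyclins, their kinases and CDK inhibitors 2 rose and 1 fell, where 2.03% of all rows were called higher and 1.48% lower. Cdkn2b, an inhibitor of Cdk4 and Cdk6, rose from 0.0534 to 0.565 RPKM (adjusted p = 0.04919 in the authors' deposited table). Cdkn1a, an inhibitor of CDKs, rose from 10.4 to 192 RPKM, and Ccnd1, cyclin D1, fell from 15.2 to 4.48 RPKM. The other D-type cyclins lay above control with no call, Ccnd2 at 23.5 and 68.4 RPKM and Ccnd3 at 17.0 and 18.8 RPKM. Cdk6, a kinase partner of D-type cyclins, had 2.71 RPKM in control against 0.791 RPKM in mutant, with adjusted p = 0.05547 in the authors' deposited table, just outside the threshold.

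Of 18 genes known to govern proliferation of heart muscle cells 11 were above control, with a median log2 fold of 0.03. By the authors' test 1 rose and 1 fell, where 2.03% of all rows were called higher and 1.48% lower. Nrg1, the growth factor neuregulin, rose from 0.0737 to 1.15 RPKM (adjusted p = 5.25e-05 in the authors' deposited table). Its receptor Erbb4 fell from 0.759 to 0.210 RPKM (adjusted p = 0.04561 in the authors' deposited table). Pim1, a survival kinase, had 3.32 RPKM in control against 8.81 RPKM in mutant, and Tbx20, a cardiac transcription factor, had 5.62 and 14.4 RPKM, neither with a call.

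**Figure D4:**
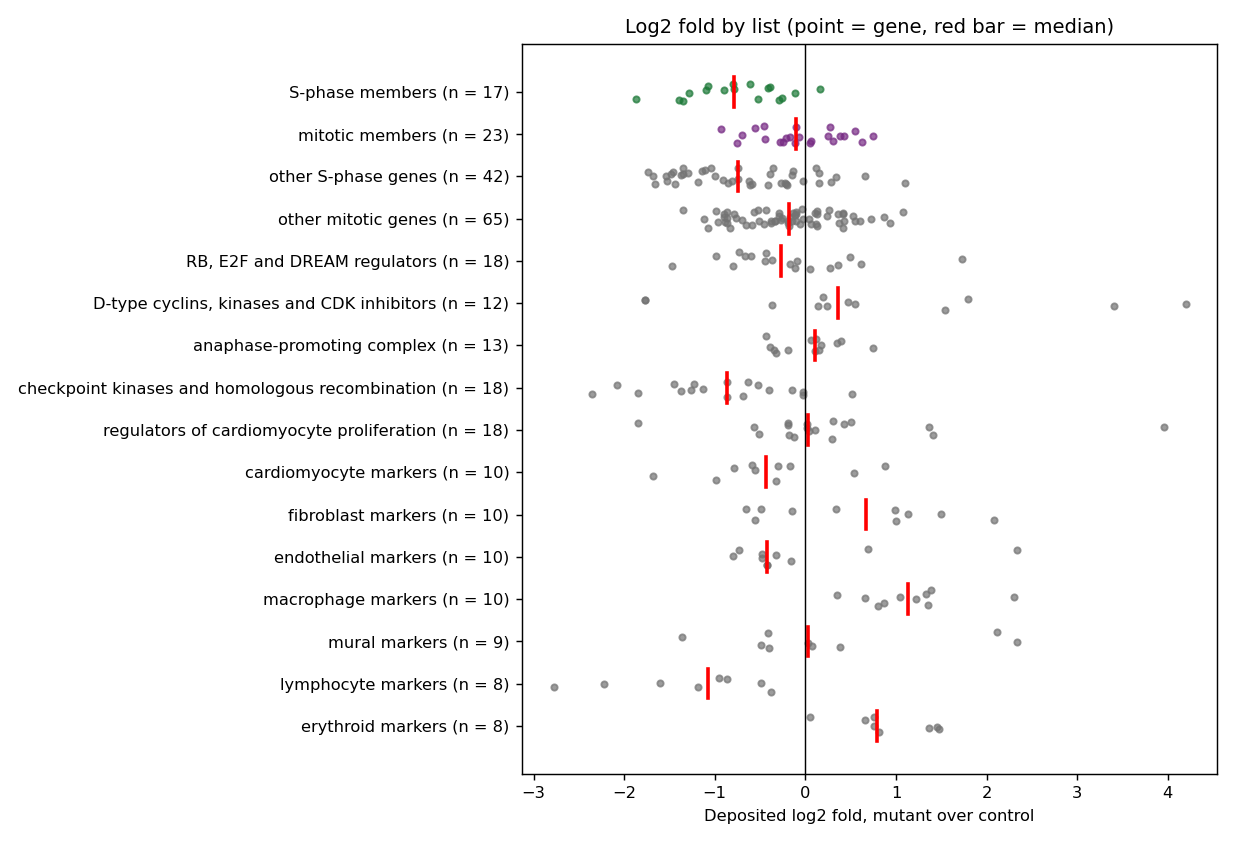
Deposited log2 fold of mutant over control (x axis) for the genes of each list (y axis), one point per gene with a finite fold and a red bar at the median, for lists of at least 8 such genes. The S-phase members and the other S-phase genes have medians of -0.79 and -0.74, and the mitotic members and other mitotic genes -0.10 and -0.18.

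Markers of the cell types that could carry these transcripts were also at different levels in the groups, and their part in the results was not tested. For the calls among them, the shares of all rows called were 2.03% higher and 1.48% lower. Cardiomyocyte markers were below control in 8 of 10, summing to 6830 RPKM in control and 5040 RPKM in mutant, with no call. Endothelial markers were below control in 8 of 10, with a median log2 fold of -0.42 and sums of 180 and 159 RPKM, and 1 marker, Vwf, rose from 1.54 to 7.79 RPKM. Lymphocyte markers were below control in all 8, with sums of 3.66 and 1.19 RPKM. Macrophage markers were above control in all 10, with sums of 76.7 and 222 RPKM, and Lyz2, lysozyme, rose from 18.4 to 90.5 RPKM.

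Fibroblast markers were above control in 6 of 10, with sums of 765 and 1020 RPKM and no call. Tagln, a mural cell marker, rose from 9.76 to 42.6 RPKM, where 2.03% of all rows were called higher. Mural cell markers were above control in 5 of 9, with a median log2 fold of 0.03. Their sums of 308 and 952 RPKM rest on Acta2, with 158 RPKM in control against 802 RPKM in mutant and no call, and without it the other 8 markers sum to 149.7 RPKM in control and 150.4 RPKM in mutant. Erythroid markers were above control in all 8, with sums of 177 and 307 RPKM and no call. The remaining lists were sparse. Neutrophil markers, with Elane listed at 0 in control, summed to 4.33 and 6.71 RPKM and Schwann cell markers to 2.55 and 2.94 RPKM, neither with a call. Epicardial markers summed to 2.35 and 3.15 RPKM, where Krt19 rose from 0.212 to 1.34 RPKM. Adipocyte markers summed to 0.0324 and 0.0147 RPKM, with Plin1 listed at 0 in control and Cfd at 0 in both groups.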

How the data were processed

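RNA sequencing of 4 ventricle samples, 2 a group, was analysed from 1 table of the authors with 36814 rows, 24454 of them tested. Per the file headers, it holds RPKM per group. Also deposited were each gene's fold ratio of mutant to control, the log2 of it, a p-value and its adjusted form, from the authors' comparison. Bowtie 0.12.9, DESeq and mm9 are named, without a role, in the submitters' processing notes. The following are not stated in the sources used: the annotation, the read counter, and how strand and multiply matching reads were handled. Depth was inferred only from 2 RPKM steps of small RNA genes in each group. These gave the ratio between groups and the approximate reads of the members.

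Mutant over control RPKM lay within 0.971% of the deposited fold in all 10320 rows where both groups reached 1 RPKM, and a recomputed Benjamini-Hochberg adjustment lay within 0.593% of the deposited one. Calls are the authors' adjusted p under 0.05. The labels do not say whether a sample is 1 mouse or a pool. Spread within a group is therefore spread between samples, and it also holds the difference between male and female. How the authors' test estimated that spread is not stated in the sources used. The implied error is the absolute log2 fold over the normal quantile of p, for p under 0.9, an approximation to the authors' test. How close the implied error comes to the error in the authors' test was not tested. Python 3.11.15, numpy 2.4.6, pandas 2.3.3, scipy 1.17.1 and matplotlib 3.10.9 were used. Genes named beyond the 40 members are, per list, those called and the 2 with the largest absolute log2 fold at a mean of at least 1 RPKM. Ccnd2 and Ccnd3 were added after their values were seen. Of cell type markers, those called or listed at 0 are named, except 1 that is not reported here, with Acta2 chosen after its values were seen, and genes that overlap a member are named beside it. Lists, members and rules were chosen with earlier results of these data known. Promoters were printed for the 4 members of each class with the highest control RPKM among those with an entry, a motif match and no place on chromosome 18. No list was tested for enrichment. Alternatives were another threshold, a filter on RPKM, pseudocounts of 0.1 and 1, centring, the class of Ccna2 and a shorter promoter window.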

Additional observations from a re-analysis of the deposited data

How the results depend on the processing

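Both class medians stayed below 0 under the alternatives run. A pseudocount cannot change the sign of a gene's fold, and centring lowered both medians, so these did not put the sign to a test. The S-phase median was -0.74 on log2 of RPKM + 0.1, -0.44 on log2 of RPKM + 1, -0.80 in members averaging 1 RPKM or more, -0.87 when centred on the median of all such rows (0.08), and -0.70 with Ccna2 counted as S-phase. The mitotic median ranged from -0.18 to -0.06, where all rows in the members' range of RPKM had a deposited median of -0.05. The count of called members was 0 at an adjusted p under 0.1 and also when adjusted over rows averaging 1 RPKM or more (0 calls), and 3 at an unadjusted p under 0.05. At that unadjusted p, in either direction, the share of all rows tested was 12.6%. The counts were 12 of 42 other S-phase genes, 1 of 65 other mitotic genes and 2 of 18 RB, E2F and DREAM regulators. They were 5 of 12 D-type cyclins, kinases and inhibitors and 0 of 13 genes of the anaphase-promoting complex. Checkpoint and recombination genes gave 6 of 18, and regulators of cardiomyocyte proliferation 4 of 18. At an adjusted p under 0.1 the other S-phase genes gave 2 calls and the D-type list 4. Over rows with a mean of at least 1 RPKM the checkpoint list and the cardiomyocyte regulators gave 0 calls, since Bard1, Nrg1 and Erbb4 lie below that level, while Timeless kept its call. Cdkn2b lies below that level too, and the D-type list gave 3 calls with Cdk6 in its place. Motif counts of members changed by at most 1 in the shorter promoter window of 150 bases.

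No paired analysis was possible because the table holds 1 value per group. For the same reason leaving out each replicate, the count models and their scalings were not run, and no value shows whether 1 library decides a result.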
